A study of Homo sapiens with 9 samples.

Results

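The genes described are the 6 CXC chemokines CXCL1, CXCL2, CXCL3, CXCL5, CXCL6 and CXCL8, which attract neutrophils. They were taken by symbol from the authors' gene table and by gene identifier from the count files, and are 6 of 64253 gene rows. Each symbol has 1 identifier, and all 6 were among the 16561 genes with enough reads to be tested. RNA was sequenced in 9 libraries from IMR90, fibroblasts grown out of human fetal lung that stop dividing after a limited span in culture.

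Every group had received lentiviral pLKO.1 vectors in 2 infections 24 hours apart, at population doubling 30 and 2% oxygen, followed by 7 days in puromycin at 3 ug/mL. The 3 control libraries carried the vector alone, named as empty in one label and as GFP in another. The 3 shRRM2 libraries carried 1 short hairpin RNA against RRM2, a subunit of the ribonucleotide reductase that makes deoxyribonucleotides, and are labelled as senescent. The 3 shRRM2/shp16 libraries carried that hairpin and 1 hairpin against p16, the CDK inhibitor encoded by CDKN2A, and are labelled as having bypassed senescence. The p16 hairpin was not used without the RRM2 hairpin. The labels do not say whether replicates a, b and c were separate cultures, so the p-values measure the spread between these libraries, which may be technical.

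These chemokines are small secreted proteins with the sequence Glu-Leu-Arg before the first cysteine pair, and they draw neutrophils out of the blood by binding CXCR2 and, for CXCL6 and CXCL8, also CXCR1. Fibroblasts make little of them at rest and raise their transcripts after interleukin 1 or TNF, largely through NF-kB at the promoter, while proteins that bind AU-rich elements shorten the life of the transcripts. CXCL8 is a well-known member of the secretory programme of senescent fibroblasts.

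The 6 genes lie within 359 kb of chromosome 4 (GRCh38, GENCODE release 29). In chromosome order they are CXCL8 (ENSG00000169429, chr4:73740506-73743716, plus strand), CXCL6 (ENSG00000124875, chr4:73836497-73849064, plus), CXCL1 (ENSG00000163739, chr4:73869393-73871242, plus), CXCL5 (ENSG00000163735, chr4:73995642-73998779, minus), CXCL3 (ENSG00000163734, chr4:74036589-74038807, minus) and CXCL2 (ENSG00000081041, chr4:74097035-74099293, minus). All are protein coding. CXCL6 overlaps the pseudogene PPBPP1, which had 0 counts, and no other member overlaps an annotated gene.

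The promoters are shown because all 6 members moved in the same direction between shRRM2 and shRRM2/shp16, as given further on. Each line holds the 120 bases before the RefSeq start site (GRCh38.p14), on the gene's strand from 5′ to 3′. Capitals mark the letters GGAATTTCC, a core that NF-kB is known to bind, and the TATA box letters TATAAA.
CXCL1, chr4:73869273-73869392, plus: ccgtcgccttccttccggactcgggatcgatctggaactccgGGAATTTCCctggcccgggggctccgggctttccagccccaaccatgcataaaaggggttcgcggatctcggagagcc
CXCL2, chr4:74099196-74099315, minus: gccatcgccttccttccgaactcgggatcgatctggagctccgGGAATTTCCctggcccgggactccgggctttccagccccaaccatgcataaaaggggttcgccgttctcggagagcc
CXCL3, chr4:74038690-74038809, minus: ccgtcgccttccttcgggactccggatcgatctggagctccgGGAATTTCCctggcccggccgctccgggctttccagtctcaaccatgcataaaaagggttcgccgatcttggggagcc
CXCL5, chr4:73998678-73998797, minus: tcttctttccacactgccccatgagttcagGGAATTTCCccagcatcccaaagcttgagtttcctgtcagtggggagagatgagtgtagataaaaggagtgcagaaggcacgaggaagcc
CXCL6, chr4:73836558-73836677, plus: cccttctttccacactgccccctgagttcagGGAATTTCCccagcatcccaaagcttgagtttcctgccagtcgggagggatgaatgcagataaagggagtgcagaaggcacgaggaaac
CXCL8, chr4:73740449-73740568, plus: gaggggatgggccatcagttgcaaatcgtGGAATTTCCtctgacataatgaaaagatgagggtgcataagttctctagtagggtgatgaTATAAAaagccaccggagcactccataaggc

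The 9 letters GGAATTTCC were present once in each of the 6 promoters, searched on both strands over 250 bases before the start, and in 0.413% of all 35116 RefSeq promoters searched in the same way. Their first base lay 77 or 78 bases before the start in CXCL1, CXCL2 and CXCL3, 90 and 89 bases before it in CXCL5 and CXCL6, and 91 bases before it in CXCL8. The broader NF-kB consensus, which overlaps these letters, was found in 5 of the 6, all but CXCL8, and in 9.96% of all promoters. The AP-1 letters TGANTCA were found in 1 member, CXCL8, 137 bases before its start, and in 6.57% of all promoters. The letters TTGCNNCAA, searched as a C/EBP pattern, were found in 0 of the 6 and in 1.62% of all promoters. This pattern does not cover all sites that C/EBP can bind, so the 0 does not show that such sites are absent. The letters TATAAA were found in CXCL8 alone, 31 bases before its start, and in 10.7% of all promoters. Only these exact letters were searched, so the other members may hold other forms of a TATA box.

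The 6 matches are not independent of each other. Over the 120 bases shown, CXCL1 and CXCL2 were identical at 93.4% of aligned positions, CXCL1 and CXCL3 at 90.8%, CXCL2 and CXCL3 at 88.5%, and CXCL5 and CXCL6 at 90.9%. CXCL8 matched the others at 46.1% to 52.1%. Among 55 further tested genes with GGAATTTCC in the promoter, 43.6% were called higher in shRRM2/shp16 than in shRRM2 and the median log2 fold change was 0.06. Over the 10410 tested genes outside the chemokines that have a RefSeq promoter entry, which are part of the 16561 tested, those values were 36.2% and 0.03. In that comparison the 55 genes ran from -2.73 for COBLL1 to 4.61 for CXCL10. In shRRM2/shp16 against control the 55 gave 47.3% and 0.16, and the 10410 gave 31.3% and -0.03. In shRRM2 against control the 55 gave 45.5% and 0.18, and the 10410 gave 27.5% and -0.05. The tally of other genes and the identities were added after the chemokine values were known.

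The libraries held 15770895 to 24873291 reads assigned to genes. RRM2 checked the labels: it was at 485 ± 5.23 CPM (read counts scaled to library size with TMM factors, mean ± SD, n = 3) in control, 62.1 ± 1.86 in shRRM2 and 177 ± 3.00 in shRRM2/shp16. The last value was 36.5% of control and 2.85-fold above shRRM2, so the RRM2 transcript also differed between the shRRM2 and shRRM2/shp16 libraries. CDKN2A was at 6.02 ± 0.113, 6.50 ± 0.464 and 4.28 ± 0.321 CPM, and at gene level this sums all its transcripts. All 12 fibroblast markers were tested, and their summed level was 34819 to 36000 CPM in control, 31947 to 32910 in shRRM2 and 29217 to 29983 in shRRM2/shp16. In shRRM2/shp16 against shRRM2 PDGFRA and COL3A1 rose by 1.92 and 1.13 on the log2 scale and THY1 and VIM fell by 0.83 and 0.72. The 11 neutrophil markers summed to between 0.417 and 1.08 CPM in every library, with none tested and S100A12, ELANE and CXCR1 at 0 in all.

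CXCL8, which gave the most reads of the 6, was measured in control replicates a, b and c at 8.21, 9.56 and 9.06 CPM. In the shRRM2 replicates it was at 16.6, 14.5 and 14.4 CPM, and in shRRM2/shp16 at 1116, 1179 and 1182 CPM. The 3 groups did not overlap. CXCL8 was the one member called higher at both steps, in shRRM2 over control and in shRRM2/shp16 over shRRM2.

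CXCL1, the ligand first described as melanoma growth stimulatory activity, stood at 0.754, 1.12 and 1.13 CPM in control. It stood at 1.33, 1.10 and 1.55 CPM in shRRM2, and at 380, 389 and 386 CPM in shRRM2/shp16. Control and shRRM2 overlapped, at 18 to 27 reads per library, while the shRRM2/shp16 libraries held 7180 to 7808.

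CXCL2, a close paralog of CXCL1 also known as MIP-2 alpha, was at 1.30, 1.96 and 1.97 CPM in control. Its shRRM2 values of 0.317, 0.173 and 0.230 CPM rest on 5, 3 and 4 reads. In shRRM2/shp16 it was at 29.9, 32.9 and 31.8 CPM. Each shRRM2 library was below each control library, and each shRRM2/shp16 library above both groups. For the 12 shRRM2 reads together the exact Poisson 95% interval is 6.20 to 21.0, against 80.5 to 121 for the 99 control reads, which covers counting error only.

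CXCL3, also known as MIP-2 beta, was at 1.01, 1.06 and 1.19 CPM in control. The shRRM2 values spread widely, at 0.127, 0.635 and 0.344 CPM from 2, 11 and 6 reads. In shRRM2/shp16 the values were 42.2, 45.1 and 41.9 CPM. As for CXCL2, the 3 groups did not overlap and shRRM2 was the lowest.

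CXCL5, known as epithelial neutrophil-activating peptide, was at 1.59, 2.24 and 1.55 CPM in control and at 2.03, 2.13 and 2.87 CPM in shRRM2, and these ranges overlapped. Its shRRM2/shp16 values were 346, 358 and 366 CPM. CXCL6, granulocyte chemotactic protein and the closest relative of CXCL5, was at 0.293, 0.391 and 0.298 CPM in control and at 0.381, 0.346 and 0.287 CPM in shRRM2, from 5 to 7 reads per library. In shRRM2/shp16 it was at 29.3, 27.9 and 26.6 CPM, above every library of the other groups.

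**Figure D1:**
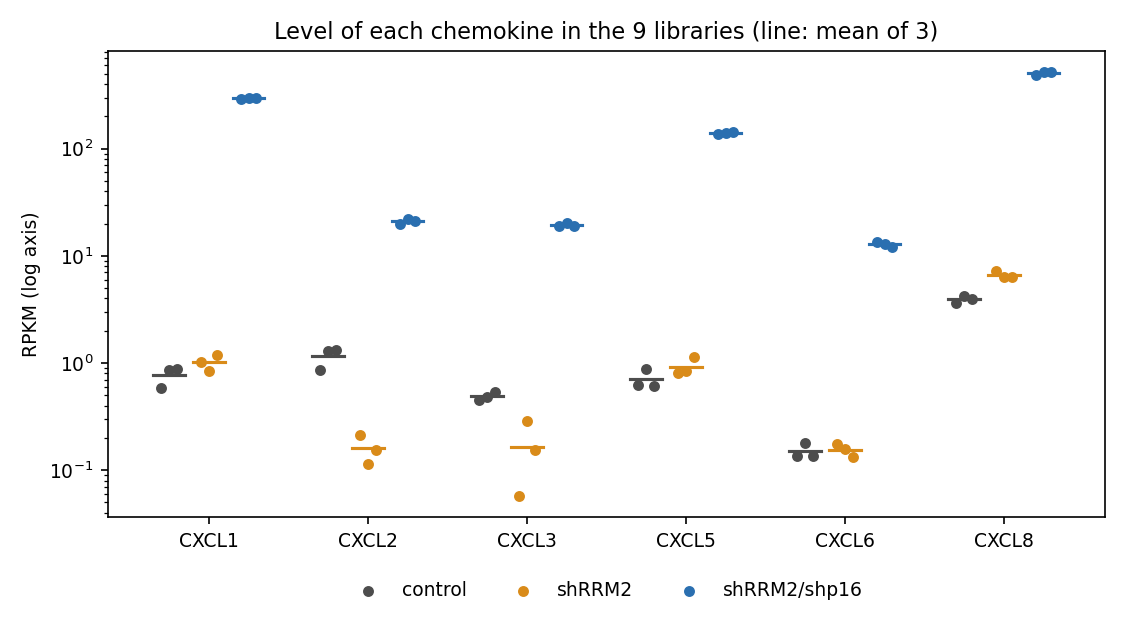
RPKM (reads scaled to gene length and library size, log axis) of the 6 chemokines in each of the 9 libraries, with 1 point per library and a line at the mean of 3. The shRRM2/shp16 points lie above all others for every gene, and for CXCL2 and CXCL3 the shRRM2 points lie below control.

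The members moved in different directions in shRRM2 against control, the cells labelled senescent against the vector alone. CXCL8 was higher, CXCL2 and CXCL3 were lower, and CXCL1, CXCL5 and CXCL6 were not called. CXCL8 rose 1.70-fold, by a log2 fold change of 0.77 ± 0.08 (SE, n = 3 against 3, edgeR quasi-likelihood adjusted p = 4.4e-11). CXCL2 fell to 14.4% of control (log2 fold change -2.80 ± 0.34, edgeR adjusted p = 2.4e-09), which put it at place 16552 of the 16561 tested genes ordered from the largest rise to the largest fall. CXCL3 fell to 35.3% of control (-1.50 ± 0.35, edgeR adjusted p = 2.8e-04). Without shRRM2 replicate b, the library with 11 CXCL3 reads, that value was -2.12. Over all single libraries left out it ran from -2.12 to -1.12.

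The other 3 members had log2 fold changes of 0.44 ± 0.24 for CXCL1, 0.41 ± 0.19 for CXCL5 and 0.05 ± 0.45 for CXCL6, with edgeR adjusted p of 0.125, 0.0615 and 0.934. In all, 3 of 6 members were called, where 60.9% of all tested genes were called in either direction, 29.0% higher and 31.8% lower. The count of members is thus no larger than the share over all genes. The same 3 members were those whose groups did not overlap, where 30.7% of tested genes had all shRRM2 libraries above control and 32.9% all below.

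CXCL5 was called higher when control replicate b was left out (log2 fold change 0.58, edgeR adjusted p = 0.0171), without shRRM2 replicate a (0.50, adjusted p = 0.0365) and without shRRM2 replicate b (0.48, adjusted p = 0.0497). CXCL1, CXCL2 and CXCL3 share long stretches of sequence, and reads that align equally to several of them are not counted, so the split between these 3 is uncertain. Summed as 1 feature they were lower in shRRM2 than in control (-0.95, edgeR adjusted p = 2.7e-06), the opposite sign to CXCL1 alone. The sum holds only reads that were counted, so it does not recover those left out. CXCL5 and CXCL6 summed gave 0.36 (edgeR adjusted p = 0.0724).

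All 6 members were higher in shRRM2/shp16 than in shRRM2. No library had the p16 hairpin alone and RRM2 was also 2.85-fold higher, so the parts of these differences cannot be told apart. The log2 fold changes in shRRM2/shp16 against shRRM2 were 8.17 ± 0.07 for CXCL1, 7.24 ± 0.07 for CXCL5, 7.01 ± 0.17 for CXCL2, 6.81 ± 0.15 for CXCL3, 6.35 ± 0.16 for CXCL6 and 6.26 ± 0.04 for CXCL8. In linear terms CXCL1 was 289-fold higher and CXCL8, the smallest of the 6 changes, 76.6-fold higher. The edgeR adjusted p ran from 2.4e-53 for CXCL8 to 8.7e-33 for CXCL6. In bulk RNA, a change in the number of cells expressing a gene and a change in RNA per cell cannot be told apart.

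Of the 16561 tested genes, 31.9% were called higher in this comparison and 5.19% were called higher by at least 2-fold, against 6 of 6 members by either measure. CXCL6, with 5 to 7 reads per control or shRRM2 library, had enough reads to be tested only through shRRM2/shp16, where it was high. Its call was thus tied to how genes were picked for testing. The members were also chosen with earlier results of these data known. Ordered by log2 fold change, CXCL1 took place 2, CXCL5 place 5, CXCL2 place 6, CXCL3 place 8, CXCL6 place 10 and CXCL8 place 11. The median over the members was 6.91, and over all tested genes 0.01. The shRRM2/shp16 and shRRM2 libraries did not overlap for any member, where 33.7% of tested genes had all shRRM2/shp16 libraries higher. The log2 fold changes in the authors' deposited table, made for this same comparison, were 8.21, 6.59, 6.70, 7.28, 6.39 and 6.29 for CXCL1, CXCL2, CXCL3, CXCL5, CXCL6 and CXCL8.

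The rise in CXCL2 and CXCL3 was measured from the lowered shRRM2 level, so the comparison with the vector control gave another order. In shRRM2/shp16 against control, log2 fold changes were 8.62 ± 0.07 for CXCL1, 7.64 ± 0.07 for CXCL5, 7.03 ± 0.05 for CXCL8, 6.40 ± 0.15 for CXCL6, 5.31 ± 0.12 for CXCL3 and 4.21 ± 0.11 for CXCL2. CXCL2 was 18.6-fold and CXCL1 392-fold above control. All 6 members were called higher with edgeR adjusted p between 2.2e-54 and 9.0e-32, where 30.0% of tested genes were called higher and 6.59% higher by at least 2-fold. The limits given above for CXCL6 and for the choice of members hold here too. No member overlapped between these groups, where 32.4% of tested genes had all shRRM2/shp16 libraries above control. The 2 comparisons with shRRM2/shp16 share those 3 libraries and are not independent of each other.

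**Figure D2:**
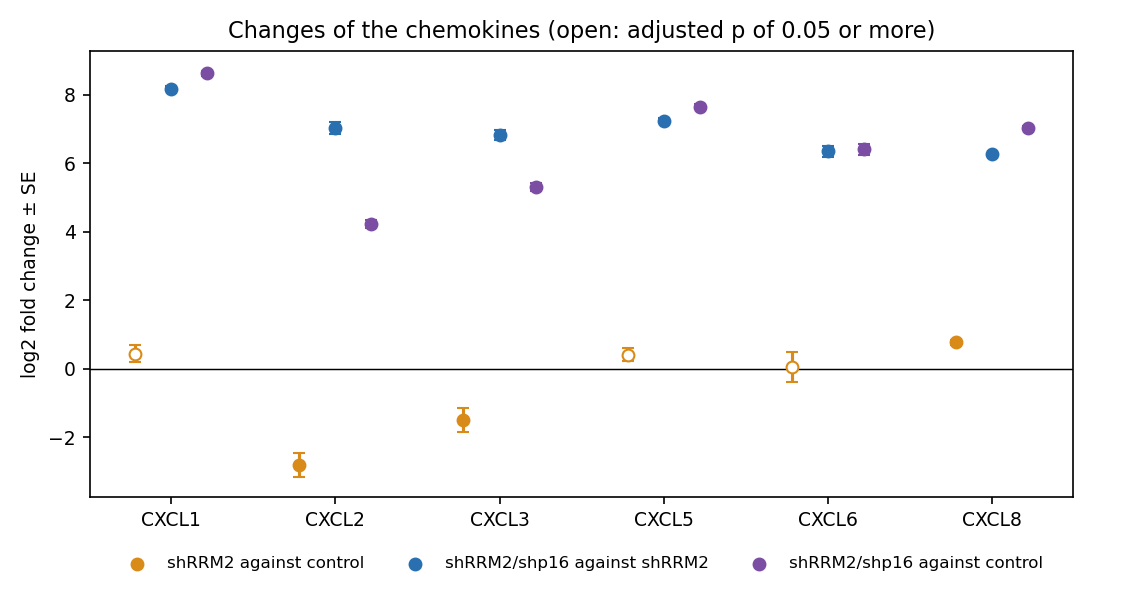
Log2 fold change ± SE of each chemokine in the 3 comparisons, from the edgeR fit over all 9 libraries, with open symbols for an adjusted p of 0.05 or more. In shRRM2 against control the values lie between -2.80 and 0.77, while both comparisons of shRRM2/shp16 lie between 4.21 and 8.62.

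Levels of different genes were compared per length, as RPKM. In control the order was CXCL8 at 3.93 ± 0.299 RPKM (mean ± SD, n = 3), CXCL2 at 1.16 ± 0.255, CXCL1 at 0.773 ± 0.165, CXCL5 at 0.706 ± 0.152, CXCL3 at 0.490 ± 0.0429 and CXCL6 at 0.150 ± 0.0253. CXCL2 and CXCL1 overlapped, as did CXCL1 and CXCL5, so their order is not resolved. In shRRM2 CXCL8 led at 6.67 ± 0.533 RPKM, followed by CXCL1 at 1.02 ± 0.175 and CXCL5 at 0.924 ± 0.180, which overlapped. CXCL3, CXCL2 and CXCL6 lay at 0.166 ± 0.115, 0.160 ± 0.0485 and 0.155 ± 0.0218 RPKM, each overlapping the next.

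In shRRM2/shp16 the order was CXCL8 at 510 ± 16.5 RPKM, CXCL1 at 297 ± 3.55, CXCL5 at 141 ± 3.94, CXCL2 at 21.0 ± 0.999, CXCL3 at 19.4 ± 0.788 and CXCL6 at 12.8 ± 0.633. Only CXCL2 and CXCL3 overlapped among neighbours in that order. CXCL8 was thus the highest and CXCL6 the lowest of the means in each of the 3 groups, while CXCL2 went from the second place in control to the fifth in shRRM2.

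Summed over the 6 genes, the level was 7.21 ± 0.843 RPKM in control, 9.10 ± 0.459 in shRRM2 and 1000.4 ± 24.1 in shRRM2/shp16. As a share of all reads assigned to genes, the 6 took 0.00126% to 0.00158% in control, 0.00188% to 0.00207% in shRRM2 and 0.201% to 0.211% in shRRM2/shp16. CXCL8 made up 54.7% ± 2.46 of the summed RPKM in control, 73.3% ± 3.37 in shRRM2 and 50.9% ± 0.429 in shRRM2/shp16. CXCL1 made up 10.6% ± 1.25, 11.2% ± 1.72 and 29.7% ± 0.398 in the same order, so its share was higher in the libraries with both hairpins.

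CXCL2 went from between 13.8% and 17.6% of the sum in the control libraries to 1.74% ± 0.442 in shRRM2 and 2.10% ± 0.0557 in shRRM2/shp16. CXCL3 went from 6.83% ± 0.672 to 1.87% ± 1.36 and 1.94% ± 0.0704. The shares of these members in shRRM2/shp16 therefore stayed below those in control although their levels were far above. CXCL5 took 9.78%, 10.2% and 14.0%, and CXCL6 2.08%, 1.70% and 1.28%.

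**Figure D3:**
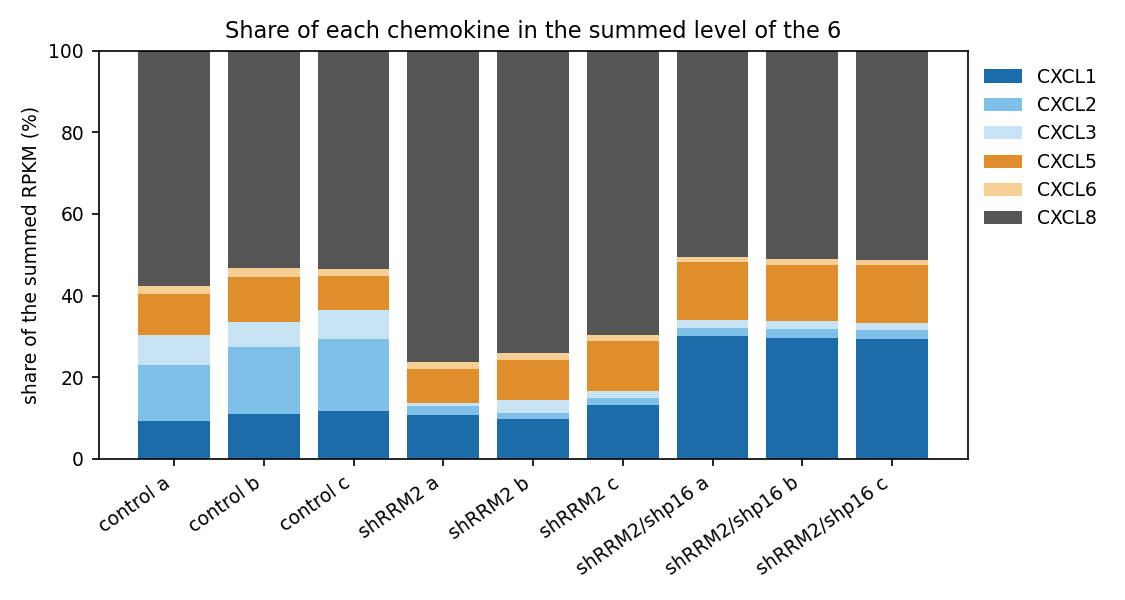
Share of each chemokine in the summed RPKM of the 6, in percent, stacked to 100 for each of the 9 libraries. CXCL8 is the largest part of every bar, CXCL2 and CXCL3 are visible mainly in control, and CXCL1 widens in the shRRM2/shp16 bars.

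Within each library the log2 ratio of a member's reads to those of CXCL8 was also compared, a choice made after the values were seen. For shRRM2 against control the ratio was lower by 3.48 for CXCL2, by 2.47 for CXCL3 and by 0.70 for CXCL6, with no overlap between the groups, while CXCL1 and CXCL5 overlapped. In shRRM2/shp16 against shRRM2 the ratio was higher by 1.91 for CXCL1, 0.99 for CXCL5 and 0.65 for CXCL2 with no overlap, and CXCL3 and CXCL6 overlapped. With 3 libraries against 3, a two-sided exact permutation test cannot go below p = 0.1, and over the 15 ratios compared the smallest adjusted p was 0.136, so none passes the threshold.

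The cluster on chromosome 4 also holds genes of platelet chemokines. PF4V1, a variant of platelet factor 4, had 2, 0 and 0 reads in control, 0 in every shRRM2 library and 19, 17 and 10 in shRRM2/shp16. Measured against a floor of 3 reads per shRRM2 library, it was at least 4.46-fold higher in the cells with both hairpins. PF4 had 0 or 1 read outside shRRM2/shp16 and 3 to 5 within it, and PPBP, the platelet basic protein precursor, had 0 in all 9. Of the 16 annotated genes in the span from CXCL8 to CXCL2, 7 had enough reads to be tested, the 6 members and PF4V1. PF4V1 and CXCL6 had enough only through shRRM2/shp16.

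Of the 5 tested genes reaching within 500 kb on either side of the span, 4 were higher in shRRM2/shp16 than in shRRM2 too, by different amounts. The share of all tested genes called higher was 31.9%. EREG and AREG, EGF receptor ligands, had log2 fold changes of 4.41 ± 0.05 and 4.27 ± 0.05 against shRRM2, with edgeR adjusted p of 1.3e-46 and 1.2e-46. EREG was at 21.0 ± 1.75, 16.3 ± 0.675 and 347 ± 6.04 CPM in control, shRRM2 and shRRM2/shp16, and AREG at 21.5 ± 1.87, 22.5 ± 1.90 and 435 ± 3.97. MTHFD2L, a mitochondrial folate enzyme gene next to CXCL2, rose by 1.11 ± 0.12, and ANKRD17, on the far side of CXCL8, by 0.39 ± 0.03. The fifth, the antisense gene AC053527.1, was at -0.09 ± 0.39 with an edgeR adjusted p of 0.852. These last 3 were named for their position.

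Over the list of flanking genes, which reaches further along the chromosome, 6 of 7 tested genes were called higher in shRRM2/shp16 than in shRRM2. Their median log2 fold change was 0.39, and 31.9% of all tested genes were called higher. The lowest 2 were RCHY1 at -0.06 ± 0.08 and THAP6 at 0.34 ± 0.10. Against control, shRRM2 had 1 of the 7 higher, 1 lower and 5 not called, and EREG, at -0.35 ± 0.07, was the lower one. Over all tested genes 29.0% were higher and 31.8% lower.

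**Figure D4:**
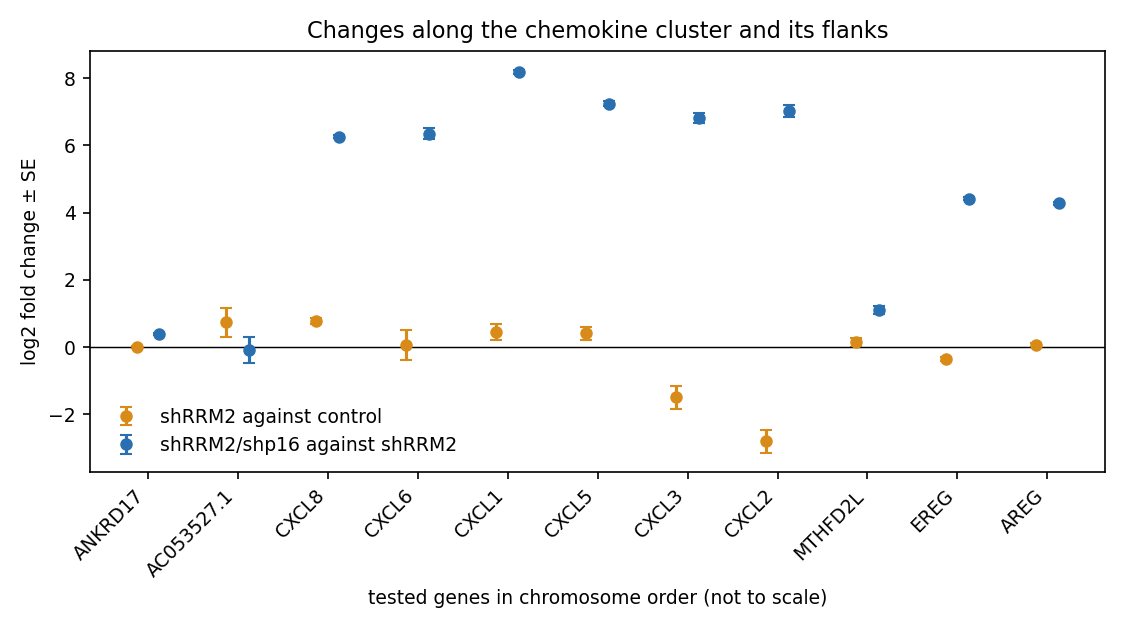
Log2 fold change ± SE of the tested genes in chromosome order, not to scale, for 2 comparisons. PF4V1 is left out since its control and shRRM2 reads were at the floor. The 6 chemokines lie between 6.26 and 8.17 in shRRM2/shp16 against shRRM2, with EREG and AREG above 4, MTHFD2L and ANKRD17 lower and AC053527.1 at -0.09.

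Transcripts of the receptors were scarce in every group. CXCR1, the receptor for CXCL6 and CXCL8, had 0 reads in all 9 libraries, and CXCR2, which binds all 6 ligands, had 1 to 6. ACKR1, a receptor that takes up chemokines without signalling through G proteins, had 0 in all. ACKR3, a receptor for CXCL12, had 2 or 3 reads per control library, 1, 2 and 8 in shRRM2 and 44, 24 and 31 in shRRM2/shp16, at least 11.0-fold above the control floor.

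Fewer of the chemokines that act on other cells had enough reads to be tested. Of 8 other CXC chemokines 3 were tested, and all 3 were called higher in shRRM2/shp16 than in shRRM2, with a median log2 fold change of 0.96. That call was made for 31.9% of all tested genes. CXCL10 had 0 to 4 reads per control or shRRM2 library, and CXCL16 had 6 to 13. Both had enough reads to be tested only through shRRM2/shp16, where they were high. Their calls were thus tied to how genes were picked for testing. CXCL10, a ligand of CXCR3 on T cells, rose by 4.61 ± 0.45 to 2.58 ± 0.431 CPM, and CXCL16 by 0.96 ± 0.32. CXCL12, the homing factor made by stromal cells, was at 135 ± 6.80 CPM in control, 29.0 ± 1.61 in shRRM2 and 49.2 ± 1.48 in shRRM2/shp16. It was therefore lower than control in both hairpin groups, by 2.21 ± 0.05 and 1.45 ± 0.04 on the log2 scale, with edgeR adjusted p of 1.4e-34 and 7.2e-30.

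Of 25 CC, XC and CX3C chemokines 5 were tested, with 3 higher, 1 lower and 1 not called in shRRM2/shp16 against shRRM2. All tested genes together gave 31.9% higher and 29.1% lower. CCL7 had 0 to 6 reads per control or shRRM2 library, and CCL20 had 0 to 11. Both genes had enough reads to be tested only through shRRM2/shp16, where they were high. Their calls were likewise tied to how genes were picked for testing. CCL20, a ligand of CCR6, rose by 5.65 ± 0.21, to 17.2 ± 1.17 CPM. CCL2, which draws monocytes, was at 23.2 ± 0.528, 37.9 ± 2.53 and 251 ± 8.05 CPM in the 3 groups and rose by 2.72 ± 0.04, while CCL7 rose by 3.39 ± 0.44. CCL28 fell by 0.54 ± 0.18 and CX3CL1 was at 0.39 ± 0.40 with an edgeR adjusted p of 0.413.

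The cytokines that induce the 6 chemokines in fibroblasts differed between groups in another way from CXCL2 and CXCL3. IL1B was at 3.04 ± 0.761 CPM in control, 12.4 ± 1.19 in shRRM2 and 216 ± 3.05 in shRRM2/shp16, so it rose at both steps, by 2.04 ± 0.12 and then 4.12 ± 0.06 on the log2 scale. IL1A rose by 1.37 ± 0.35 and then 3.45 ± 0.17, and IL6, a cytokine induced by the same signals, by 2.20 ± 0.07 and 3.04 ± 0.04. Each of these had an edgeR adjusted p of 8.7e-04 or less. Of 11 tested genes of this list, 7 were higher and 1 lower in shRRM2 against control, and 5 were higher and 1 lower in shRRM2/shp16 against shRRM2, where the median was 0.07. The shares over all tested genes were 29.0% and 31.8% in the former, and 31.9% and 29.1% in the latter.

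The lowest 2 in the latter comparison were IL17RA, a subunit of the interleukin 17 receptor, which fell by 0.25 ± 0.05, and TLR3, a sensor of double-stranded RNA, at -0.25 ± 0.23. TNF had 0 reads over the 8 gene identifiers that carry its symbol. Reads that align to several copies are not counted, and their part in this 0 was not tested.

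Of 14 genes that relay signals from these receptors to NF-kB, 5 were higher and 3 lower in shRRM2/shp16 against shRRM2, a median of 0.09. The counts lie near the shares over all tested genes, 31.9% higher and 29.1% lower. IRAK3, an inhibitory member of the IRAK family, rose by 2.42 ± 0.07 and MAP3K8, the kinase TPL2, by 2.08 ± 0.13. TRAF6 and IRAK1, which carry the interleukin 1 signal, fell by 0.38 ± 0.07 and 0.21 ± 0.04. The edgeR adjusted p of these 4 ran from 4.4e-30 to 2.0e-05. IRAK2 and MYD88, which carry the same signal, rose by 1.21 ± 0.06 and 0.34 ± 0.05 (edgeR adjusted p = 2.3e-21 and 2.8e-07). The receptor gene IL1R1, of the inducer list, rose by 2.24 ± 0.03, and its partner IL1RAP was not called.

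Among 15 transcription factors of the chemokine promoters, 12 were higher and 2 lower in shRRM2/shp16 against shRRM2, with a median log2 fold change of 0.79. Beside these counts, 31.9% of all tested genes were higher and 29.1% lower. CEBPB, a C/EBP family activator, rose by 1.72 ± 0.04 and FOS by 1.68 ± 0.12, while the AP-1 subunits FOSL1 and JUN fell by 1.05 ± 0.04 and 0.59 ± 0.04. NFKBIZ, a nuclear cofactor of NF-kB, was at 61.8 ± 2.53, 106 ± 4.41 and 192 ± 0.219 CPM in the 3 groups. RELA, the main activating subunit of NF-kB, was at 116 ± 2.76, 113 ± 2.61 and 114 ± 3.07 CPM and was not called in any comparison. FOS, at 7.70 ± 0.456, 3.63 ± 0.266 and 11.6 ± 0.708 CPM, was lowest in shRRM2, the same order as CXCL2 and CXCL3. That order was not particular to FOS. BCL3, of the same list, had it at 44.1 ± 1.82, 31.0 ± 2.40 and 50.0 ± 1.76 CPM, as did IRAK3 and MAP3K8 among the relay genes.

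NF-kB raises several of the genes that restrain it. A list of 10 genes held 8 such regulators and the NF-kB targets SOD2, an antioxidant enzyme, and ICAM1, an adhesion molecule. Of these 10, 6 were higher and 1 lower in shRRM2/shp16 against shRRM2, with a median of 0.64. The shares over all tested genes were 31.9% and 29.1%. TNFAIP3, the ubiquitin-editing enzyme A20, rose by 3.18 ± 0.05, from 20.8 ± 1.36 to 189 ± 6.80 CPM, and NFKBIA, which encodes the inhibitor I-kB alpha, by 2.19 ± 0.05. TNIP1, a partner of A20, fell by 0.37 ± 0.03, and its relative TNIP3 was at -0.05 ± 0.33. In shRRM2 against control NFKBIA fell by 0.18 ± 0.06 and TNFAIP3 was not called (0.11 ± 0.07, edgeR adjusted p = 0.159).

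Of 8 regulators of mRNA decay, 2 were higher and 5 lower in shRRM2/shp16 against shRRM2, with a median of -0.23. There 31.9% of all tested genes were higher and 29.1% lower. In shRRM2 against control 1 was higher and 5 lower, where those shares were 29.0% and 31.8%. ZFP36, or tristetraprolin, which marks chemokine transcripts for decay, was at 47.0 ± 0.264, 39.8 ± 1.39 and 34.3 ± 1.65 CPM in control, shRRM2 and shRRM2/shp16. It fell by 0.24 ± 0.05 and then by 0.22 ± 0.05, with edgeR adjusted p of 9.6e-05 and 5.5e-04. ZC3H12A, the ribonuclease Regnase-1, rose by 2.32 ± 0.07 in the second step and ZFP36L1 by 0.16 ± 0.03, while ZFP36L2 and ELAVL1 fell by 0.34 ± 0.04 and 0.31 ± 0.04. The list was not split by whether a gene shortens or prolongs the life of transcripts, so its counts give no direction for decay.

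**Figure D5:**
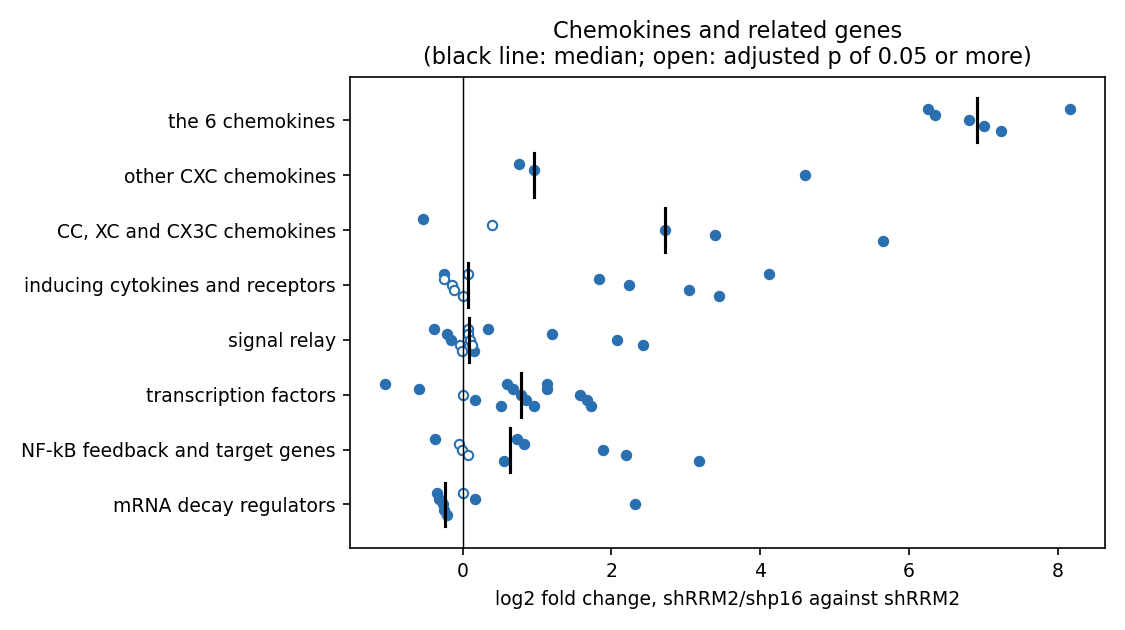
Log2 fold change in shRRM2/shp16 against shRRM2 of the tested genes of each list, 1 point per gene, open where the edgeR adjusted p is 0.05 or more, with a black line at the median. The chemokine members have a median of 6.91, transcription factors 0.79, NF-kB feedback and target genes 0.64 and mRNA decay regulators -0.23.

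Genes with the profile closest to the members were sought among all tested genes with a symbol, by the root mean square difference in log2 CPM, less the control mean, from the members' median profile over the 9 libraries. The median profile was -0.13 to 0.17 in control, 0.10 to 0.23 in shRRM2 and 6.49 to 6.52 in shRRM2/shp16. The nearest 8 were CCL20 at a difference of 0.708, then C2CD4B at 0.920, MMP3 at 0.965, VNN3 at 0.980, C2CD4A at 1.02, IL1B at 1.11, BCL2A1 at 1.11 and PTGS2 at 1.18. The members themselves lay between 0.317 for CXCL6 and 2.04 for CXCL2 from that profile, which is their own median, so the middle members are near it by construction.

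The nearest genes were measured at very different depths. PTGS2, the inducible cyclooxygenase, was at 19.2 ± 0.860, 79.1 ± 1.65 and 1008 ± 17.4 CPM, and MMP3, the matrix metalloproteinase stromelysin, at 8.62 ± 1.10, 19.9 ± 2.32 and 322 ± 2.24. BCL2A1, a survival factor of the BCL2 family, was at 0.232 ± 0.163, 0.259 ± 0.125 and 8.25 ± 0.738 CPM. C2CD4B had 0 reads in every control library and C2CD4A 0 or 1, so their place rests on reads in the other groups. CCL20, VNN3 and BCL2A1 also had few control reads, at 0 to 4, 3 to 6 and 2 to 7 per library. Their distances are therefore uncertain too.

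Markers of other cell types were measured for their level alone. The 10 monocyte and macrophage markers summed to 2.72 to 3.24 CPM in control, 4.67 to 5.62 in shRRM2 and 3.34 to 4.12 in shRRM2/shp16, with MARCO and AIF1 at 0 in all. The 10 epithelial markers summed to 161 to 168, 209 to 215 and 53.2 to 55.1 CPM, with KRT5, SFTPC, SCGB1A1 and NKX2-1 at 0, and KRT19 fell by 4.33 in shRRM2/shp16 against shRRM2. The 8 endothelial markers summed to 65.7 to 71.0, 68.5 to 73.5 and 115 to 124 CPM, most of it TEK, at 65.2 ± 2.36, 67.4 ± 1.96 and 115 ± 5.02 CPM. The neutrophil and monocyte sums were thus not highest in shRRM2/shp16, and the endothelial sum was. CDH5 and CLDN5 had 0 or 1 read in each shRRM2/shp16 library, while KDR was at 1.83 ± 0.431, 1.32 ± 0.373 and 3.58 ± 0.597 CPM in the 3 groups. A part of endothelial cells in the chemokine levels was not tested.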

How the data were processed

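For each library the authors deposited a file of raw gene-level read counts in the layout of HTSeq. Per the submitters' processing notes, TopHat2 2.0.9, Cufflinks 2.0.2 and Cuffdiff were used and the build was GRCh38. The strand setting is not given in the sources used here. Reads assigned to no gene were 17.6% to 28.8% of uniquely aligned reads and stayed out of library sizes. A further deposited table holds, per the file headers, log2 RPKM values per library and, for the shRRM2/shp16 to shRRM2 comparison alone, a log2 fold change, a p-value and a q-value. Of its 9 log2 RPKM columns, 8 match the counts and that of shRRM2 replicate c does not, so RPKM values here were computed from the counts and the authors' gene lengths. Symbols of 29 genes were numbers in that table and were restored by identifier, and 0 columns matched no sample.

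Tests of the counts used edgeR 4.0.16 (R 4.3.3). The function filterByExpr kept 16561 genes with 99.8% of the counts, TMM factors scaled the libraries, and 1 quasi-likelihood fit held all 9 libraries (6 residual degrees of freedom). Tests were two-sided, adjusted by Benjamini-Hochberg over all tested genes, with a threshold of 0.05. The standard error is the log2 fold change divided by the square root of F. A group with at most 3 reads in every library was called at the floor, and folds over such a group are bounds. Read counts have no molecular identifiers, so intervals cover counting error only. The fit was first tested on simulated counts.

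Replicate letters did not pair the samples (same-letter deviations correlated between -0.0198 and 0.0486). Replicates of a group differed beyond sampling noise, with chi-square per degree of freedom between 1.41 and 2.70. Alternatives were RLE factors, DESeq2 1.42.0, other filters, 6 libraries only, a replicate block, leaving out each library, summed paralogs and limma 3.58.1 on log2(RPKM + 1 or 0.1). The members and the gene lists were chosen with earlier results of these data known. Named were all members, fixed inducers, receptors and regulators, the targeted genes, the 2 highest and 2 lowest tested genes of each list in shRRM2/shp16 against shRRM2, and the nearest 8 genes. IL1R1, IL1RAP, IRAK2, MYD88, BCL3, ICAM1 and SOD2 were named in addition. Of the marker lists, only sums and single genes are given. All 172 list entries matched an identifier.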

Additional observations from a re-analysis of the deposited data

Results flagged for a closer look

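The deposited log2 RPKM column of shRRM2 replicate c holds higher values for the 6 chemokines than its own count file gives, and it entered none of the comparisons above. The ratio of the deposited RPKM to the value from the counts was 5.20 for CXCL1, 5.05 for CXCL2, 4.28 for CXCL3, 3.23 for CXCL5, 4.77 for CXCL6 and 3.65 for CXCL8. Only 4.43% of the genes compared in that column lay within 1% of the fixed gene length, against 100% in the other 8 columns.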

How the results depend on the processing

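All 258 alternative log2 fold changes of the members in the 2 comparisons with shRRM2/shp16 kept their direction and side of the threshold, though limma with a pseudocount of 1 compressed them, to 3.45 for CXCL6 against shRRM2. In shRRM2 against control 115 of 128 did. There CXCL1 was -0.95 with CXCL1, CXCL2 and CXCL3 summed, and CXCL6 was -0.0376 without control replicate a, -0.0041 without control replicate c and -0.03 without shRRM2 replicate a, within -0.0376 to 0.187 over all single libraries left out. CXCL3 was -0.17 in limma with a pseudocount of 1 (adjusted p = 0.419) and -0.68 with 0.1 (adjusted p = 0.321) on the 9 deposited columns. On the 8 columns that match the counts, added after seeing the data, it was -0.34 and -1.22 (limma adjusted p = 0.0183 and 0.0220). With at least 10 counts in every library, CXCL2, CXCL3 and CXCL6 were not tested. The members then called were 2 higher (CXCL8 and CXCL5) and 0 lower in shRRM2 against control, and 3 higher in each comparison with shRRM2/shp16. Leaving out 1 library gave 1 to 2 members higher in shRRM2 against control. In all 4 limma settings on the deposited columns 1 member was lower there, and without a filter 0 were higher (CXCL8 1.24, adjusted p = 0.0640).

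Counts of genes called moved by over 1.5 times only in limma on the deposited columns. In shRRM2 against control, 3033 were higher with a mean RPKM of at least 1, and 3155 higher and 3351 lower with no filter, against 4810 and 5269. In shRRM2/shp16 against shRRM2, 3163, 3103, 2776 and 2984 were lower with pseudocount 1, pseudocount 0.1, mean RPKM of at least 1 and no filter, against 4825. In shRRM2/shp16 against control, 3578, 3422 and 3370 were lower with pseudocount 1, mean RPKM of at least 1 and no filter, against 5368. The cause was not tested, and the mismatched column enters all of them. The replicate block, on letters that pair no samples (3 of 9 libraries were closest to their own letter), changed no member's call, with 5317 genes higher and 4817 lower in shRRM2/shp16 against shRRM2 and 4811 and 5290 in shRRM2 against control. Summed paralogs give fewer features, so no count of members was made there. Depth limits CXCL2, CXCL3 and CXCL6 outside shRRM2/shp16, at 12 to 99 reads a group.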
